A study of Mus musculus with 16 samples.

Results

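The 9 genes described here encode transcription factors that are known for work in hair follicle stem cells (HFSCs), the CD34+ keratinocytes of the follicle's bulge. They are Sox9, Lhx2, Tbx1, Nfatc1, Foxc1, Tcf7l1, Tcf3, Runx1 and Gata3, and all 9 had a row among the 32989 gene identifiers of the count table. They were listed by name, with earlier results of these data known. HFSC organoids were grown from 4 C57BL/6J mice in 3D-3C culture, in which stem cells and their progeny are held in Matrigel. After 2 weeks 2 populations were sorted from the organoids by α6, an integrin of basal keratinocytes, and by CD34: HFSCs (α6+/CD34+) and progenitors (α6+/CD34-). The cultures were either given N1-AcSpd for 72 h, an acetylated form of the polyamine spermidine whose full name is N1-acetylspermidine, or left untreated. This gives 4 groups of 4 libraries: untreated CD34-, untreated CD34+, N1-AcSpd CD34- and N1-AcSpd CD34+. The libraries are labelled wild type, and per the study's methods the mice were females and males in telogen, the resting phase of the hair cycle, with no age given per library. Each mouse supplied 1 library in each group, so the 4 groups share their animals. Every group, the untreated ones included, consists of cells cultured for 2 weeks and not of cells taken directly from skin.

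HFSCs rest in the bulge for most of the hair cycle, and a small set of transcription factors holds their identity and their rest. SOX9, LHX2 and TBX1 are known for specifying and maintaining the bulge cell. NFATC1, which calcineurin activates, and the forkhead factor FOXC1 are known for holding these cells in quiescence. In the organoids, however, the study measured more proliferation (EdU uptake) in untreated CD34+ cells than in progenitors, and N1-AcSpd raised it in both. The CD34+ cells of this culture are therefore not to be read as the resting population. TCF7L1, the factor that older literature on hair follicles calls TCF3, represses Wnt targets in the resting bulge. The mouse gene now named Tcf3 is another one and encodes the E proteins E12 and E47, whose partners and inhibitors include the Id proteins. RUNX1 is known for promoting the step from rest to growth, and GATA3 for specifying the inner root sheath, a differentiated layer of the hair follicle.

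Promoter sequences are shown for Lhx2 and Tbx1, the members with the highest CD34+ to CD34- ratios. Both were higher in every CD34+ library than in any CD34- library, and their start regions are set side by side for that reason. Each sequence is the 250 bases before the start of transcription, written 5′ to 3′ on the strand of the gene, and the capitals mark CG dinucleotides. They come from RefSeq on GRCm38.p6, and neither window overlapped an annotated exon. Lhx2 lies on the plus strand and Tbx1 on the minus strand.
Lhx2, chr2:38339031-38339280: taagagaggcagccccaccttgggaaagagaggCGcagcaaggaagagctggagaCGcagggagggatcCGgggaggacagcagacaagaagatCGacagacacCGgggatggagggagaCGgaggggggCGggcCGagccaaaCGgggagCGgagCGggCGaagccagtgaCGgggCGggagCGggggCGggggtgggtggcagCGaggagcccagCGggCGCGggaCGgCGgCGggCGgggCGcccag
Tbx1, chr16:18590672-18590921: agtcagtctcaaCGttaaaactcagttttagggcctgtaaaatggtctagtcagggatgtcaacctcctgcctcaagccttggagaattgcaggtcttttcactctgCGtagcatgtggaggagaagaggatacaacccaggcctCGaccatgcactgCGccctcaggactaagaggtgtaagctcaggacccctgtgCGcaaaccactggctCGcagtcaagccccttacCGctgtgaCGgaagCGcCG

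The Lhx2 window held 25 CG dinucleotides and was 72.8% G or C. The Tbx1 window held 10 and was 54.4% G or C. The medians over all 32851 mouse windows of this length were 6 CG dinucleotides and 52.4%. Both windows were searched on both strands for short core letters known for the members' own families. The SOX letters ACAANG occurred in 36.3% of all windows, the E protein letters CAGNTG in 44.8% and the NFAT letters GGAAAA in 20.4%. Those of T-box factors, GGTGTG, occurred in 16.3%, those of RUNX factors, TGTGGT, in 14.0%, and those of TCF/LEF factors, TCAAAG, in 13.8%. The forkhead letters TAAACA occurred in 12.0%, the GATA letters AGATAA in 10% and the LIM homeodomain letters TAATTA in 4.8%. Neither of the printed windows held any of the 9, which says only that these letters do not occur there. Each of the 2 genes has another window at a further start, not printed. That of Tbx1 (17 CG dinucleotides, 67.2% G or C) held none of the letters, and that of Lhx2 (24 and 68.4%) held those of NFAT. RefSeq windows were at hand for 7 members, 10 windows in all, and the family letters found most often among them were those of SOX factors, in 1 window each of Tcf7l1, Tcf3 and Gata3. Sox9 and Nfatc1 had no entry.

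Values below are unique molecular identifier (UMI) counts, in which each tag stands for 1 molecule, scaled with TMM factors to a common total and given as CPM, counts relative to library size. Libraries held 15480075 to 29074855 UMIs. Means are given ± SD over 4 libraries. The labels of the cells were checked first: Cd34, the gene of the sorted marker, lay between 2.88 and 3.65 CPM in the 8 CD34- libraries and between 43.4 and 64.1 CPM in the 8 CD34+ libraries. The keratin gene Krt14, a marker of basal keratinocytes, was at 4601 to 5717 CPM in every library. Of 6 tested keratinocyte genes, Krt14, Itga6 and Cdh1 were lower and Trp63 higher in CD34+ cells in both conditions (adjusted p under 0.05 in edgeR). Itga6, the gene of α6, was at 58.1 to 68.9 CPM in untreated CD34- and 45.9 to 53.0 CPM in untreated CD34+ cells. With N1-AcSpd it was at 52.3 to 58.4 and 45.7 to 51.9 CPM. The part of these differences in the results was not tested. Of the lists for other cell types, the summed fibroblast markers reached at most 1.60 CPM, Merkel cell markers 0.767 CPM and immune markers 5.93 CPM. The fibroblast sum was 0.516 to 1.60 CPM in the 8 CD34- libraries and 0.171 to 0.713 CPM in the 8 CD34+ libraries, where Pdgfrb was at 0, and its part in the results was not tested. Among endothelial markers, Pecam1 stood at 1687 to 2055 CPM while Kdr did not pass 0.360 CPM and Tek 0.274 CPM. Pecam1 was lower in CD34+ cells in both conditions (log2 fold change -0.13 in each, adjusted p under 0.05 in edgeR). So was Col1a2, 1 of 2 tested fibroblast markers, and the part of these differences in the results was not tested. Among melanocyte markers, Mitf stood at 16.9 to 23.9 CPM and Pmel at 8.84 to 11.7 CPM, while Dct did not pass 0.868 CPM. Mitf was higher in untreated CD34+ than in CD34- cells (log2 fold change 0.28, SE 0.06, adjusted p = 0.00198 in edgeR), the 1 call among 4 tested melanocyte markers, and its part in the results was not tested. The summed melanocyte markers were at 28.0 to 31.0 CPM in CD34- and 29.4 to 36.1 CPM in CD34+ libraries. Several further markers of these lists were not analysed here.

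CD34+ cells held more transcript of 7 of the 9 factors than CD34- cells, in both conditions. These were Lhx2, Tbx1, Nfatc1, Sox9, Runx1, Foxc1 and Tcf3, and none of the 9 was lower. The study had already reported HFSC identity markers as higher in CD34+ cells in these data, and most markers it measured by quantitative RT-PCR. Its primers for that included Sox9, Lhx2, Nfatc1 and a pair labelled Tcf3, so the direction was known beforehand for part of the set. Whether that label means the gene now named Tcf3 or, by the older name, Tcf7l1 is not stated there. The log2 fold changes of the 7 ran from 0.52 (Tcf3) to 2.98 (Lhx2) in untreated cells and from 0.51 (Tcf3) to 2.35 (Lhx2) in N1-AcSpd cells. Among all 19049 genes tested, 16.1% were called higher in untreated CD34+ cells and 16.5% in N1-AcSpd CD34+ cells. The same 7 genes also showed no overlap between the CD34+ and CD34- libraries in either condition, a pattern met by 15.9% of all genes in untreated cells and 16.1% in N1-AcSpd cells. The median log2 fold change of the 9 members was 1.00 in untreated and 0.93 in N1-AcSpd cells, against 0.02 and -0.01 over all genes. A gene was called at an adjusted p under 0.05 (edgeR quasi-likelihood test, Benjamini-Hochberg over all genes tested). With sorted populations, fewer cells of a type that carry a transcript and less of it per cell cannot be told apart. Scaling by library totals moved the median of all genes to 0.14 and 0.11, and the calls in untreated cells from 3059 of 6123 higher to 4862 of 6621 higher. The same number of members, 7, was called under that scaling.

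**Figure D1:**
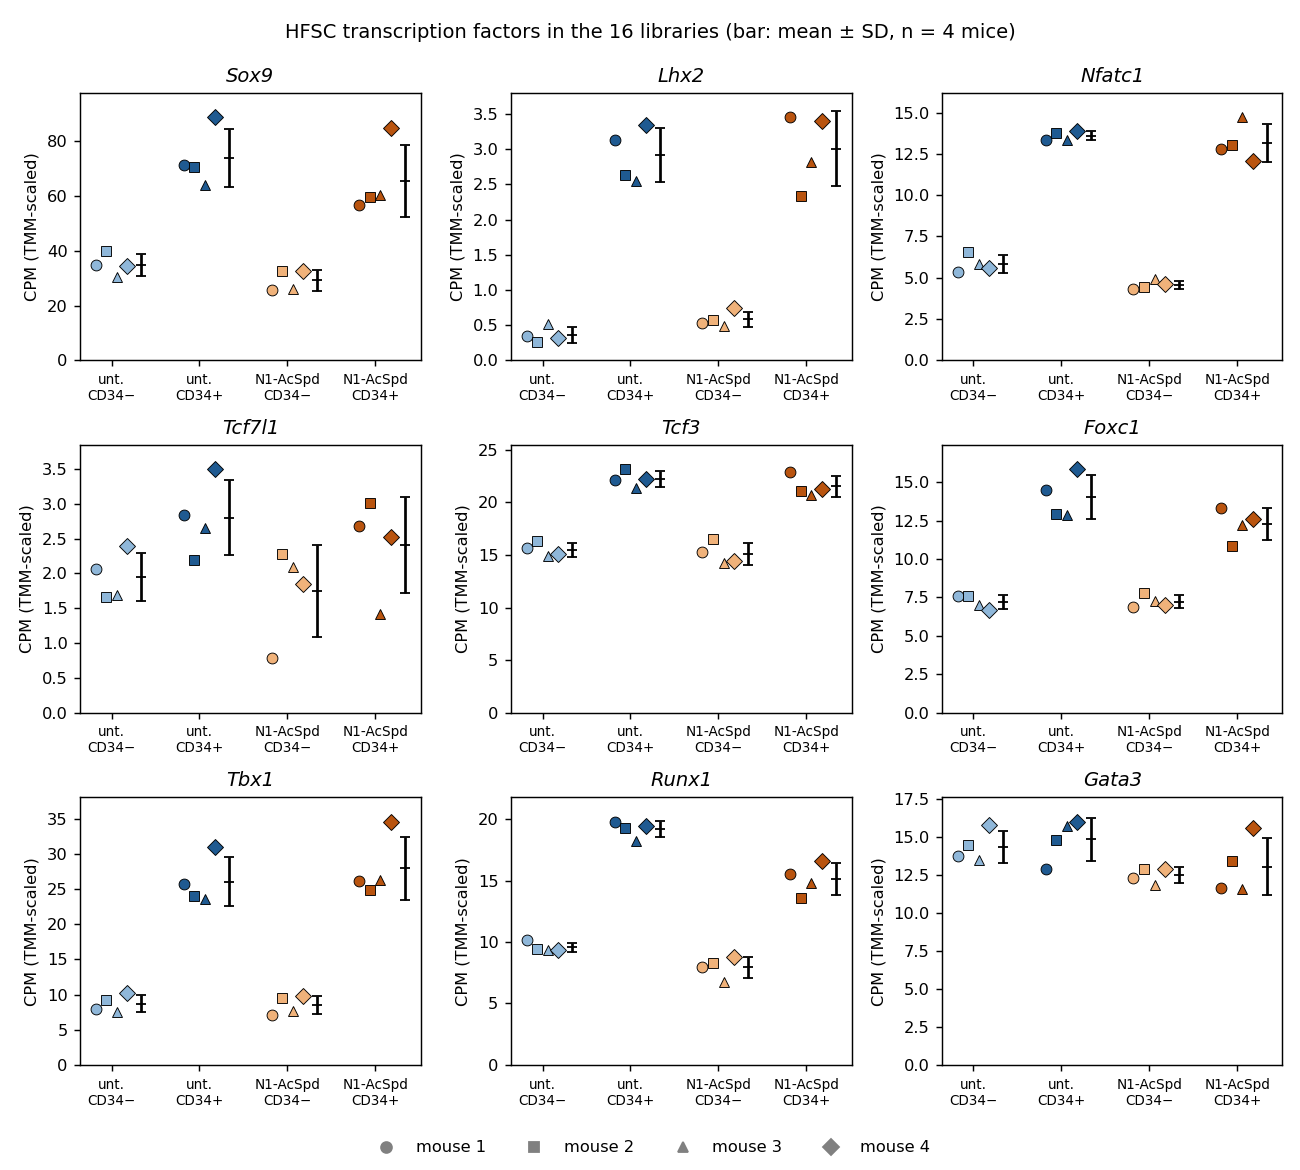
Each panel plots 1 gene's level in CPM (y axis, from 0) in the 4 groups (x axis; unt., untreated), with a symbol for each mouse and a bar for mean ± SD (n = 4). The CD34+ libraries stand clear above the CD34- libraries for 7 genes, while those of Tcf7l1 and Gata3 overlap, and Runx1 is lower with N1-AcSpd in both cell types.

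Sox9 encodes an HMG-box factor and lies on the plus strand at chr11:112782224-112787760 (GRCm38, as are all positions given here). In untreated cells of mice 1 to 4 it was at 34.8, 39.9, 30.4 and 34.3 CPM in CD34- and at 71.3, 70.6, 64.2 and 88.8 CPM in CD34+ cells. After N1-AcSpd it was at 25.6, 32.5, 26.1 and 32.6 CPM in CD34- and at 56.8, 59.5, 60.3 and 85.0 CPM in CD34+ cells. The lowest CD34+ library thus stood above the highest CD34- library in both conditions, and mouse 4 gave the highest CD34+ library in both. The means were 34.9 ± 3.92 and 73.7 ± 10.6 CPM without treatment, a log2 ratio of 1.08 (SE 0.14, adjusted p = 6.88e-05 in edgeR). With N1-AcSpd they were 29.2 ± 3.90 and 65.4 ± 13.1 CPM, a log2 ratio of 1.16 (SE 0.14, adjusted p = 3.05e-05). Mouse by mouse, the CD34+ to CD34- ratio ran from 1.77 to 2.59 in untreated and from 1.83 to 2.61 in N1-AcSpd cells.

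Lhx2, on the plus strand at chr2:38339281-38369733, encodes a LIM homeodomain factor and showed the highest ratio of the 9. In mice 1 to 4, 8, 4, 12 and 7 UMIs of it were counted in untreated CD34- and 55, 48, 47 and 65 in untreated CD34+ libraries. The N1-AcSpd CD34- libraries held 13, 16, 13 and 18 UMIs, and the N1-AcSpd CD34+ libraries 93, 41, 46 and 58. The CD34- counts are few, so ratios against them carry a wide counting error, but the lowest CD34+ count, 41, lay well above the highest CD34- count, 18. In CPM the means were 0.359 ± 0.114 and 2.91 ± 0.383 without treatment, a log2 ratio of 2.98 (SE 0.22, adjusted p = 6.46e-07 in edgeR). With N1-AcSpd they were 0.584 ± 0.107 and 3.00 ± 0.531 CPM, a log2 ratio of 2.35 (SE 0.20, adjusted p = 1.57e-06). The ratio within a mouse ran from 4.90 to 10.6 in untreated and from 4.11 to 6.44 in N1-AcSpd cells.

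Tbx1, on the minus strand at chr16:18580979-18590671, encodes a T-box factor. In untreated cells of mice 1 to 4 it was at 7.96, 9.20, 7.49 and 10.2 CPM in CD34- and at 25.7, 24.0, 23.6 and 31.0 CPM in CD34+ cells. With N1-AcSpd the values were 7.10, 9.48, 7.72 and 9.76 CPM in CD34- and 26.1, 24.8, 26.3 and 34.6 CPM in CD34+ cells. All 8 CD34+ libraries lay above all 8 CD34- libraries, and mouse 4 again gave the highest CD34+ value in each condition. The log2 fold change was 1.58 without treatment (SE 0.14, adjusted p = 2.39e-06 in edgeR) and 1.72 with N1-AcSpd (SE 0.14, adjusted p = 1.26e-06).

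Nfatc1 lies on the minus strand at chr18:80606205-80713071 and encodes the calcineurin-dependent factor of HFSC quiescence. In untreated cells of mice 1 to 4 it was at 5.33, 6.58, 5.85 and 5.59 CPM in CD34- and at 13.4, 13.8, 13.3 and 13.9 CPM in CD34+ cells. Treated libraries of the same mice were at 4.29, 4.44, 4.91 and 4.64 CPM in CD34- and at 12.8, 13.0, 14.7 and 12.0 CPM in CD34+ cells. Its untreated CD34+ libraries lay close together, with an SD of 0.274 around a mean of 13.6 CPM. That is closer than counting of UMIs alone would give on average, so it is not read as a property of the gene. The log2 fold change between the cell types was 1.22 without treatment (SE 0.07, adjusted p = 1.75e-07 in edgeR) and 1.52 with N1-AcSpd (SE 0.07, adjusted p = 1.65e-08).

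Foxc1, on the plus strand at chr13:31806633-31812476, encodes the other quiescence factor of the set. Without treatment it stood at 7.57, 7.60, 7.02 and 6.68 CPM in CD34- and at 14.5, 12.9, 12.8 and 15.8 CPM in CD34+ cells. Under N1-AcSpd it stood at 6.85, 7.77, 7.26 and 7.01 CPM in CD34- and at 13.3, 10.9, 12.2 and 12.6 CPM in CD34+ cells. The CD34+ libraries were higher in all 4 mice in both conditions. The fitted difference on the log2 scale was 0.96 without treatment (SE 0.08, adjusted p = 1.33e-06 in edgeR) and 0.76 with N1-AcSpd (SE 0.08, adjusted p = 6.37e-06).

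Runx1, on the minus strand at chr16:92601466-92826149, encodes the DNA-binding subunit that pairs with CBFB. In untreated cells it was at 10.2, 9.46, 9.36 and 9.39 CPM in CD34- and at 19.8, 19.3, 18.2 and 19.5 CPM in CD34+ cells. In N1-AcSpd cells it was at 7.97, 8.27, 6.77 and 8.82 CPM in CD34- and at 15.5, 13.6, 14.8 and 16.6 CPM in CD34+ cells. The 4 groups did not overlap at all and stood in the order untreated CD34+, N1-AcSpd CD34+, untreated CD34-, N1-AcSpd CD34-. The cell type log2 fold change was 1.00 without treatment (SE 0.08, adjusted p = 8.11e-07 in edgeR) and 0.93 with N1-AcSpd (SE 0.08, adjusted p = 1.07e-06).

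Tcf3, on the minus strand at chr10:80409514-80433647, had the lowest ratio of the 7. Without treatment it stood at 15.6, 16.4, 14.9 and 15.1 CPM in CD34- and at 22.1, 23.1, 21.4 and 22.2 CPM in CD34+ cells. After N1-AcSpd it was at 15.3, 16.5, 14.3 and 14.4 CPM in CD34- and at 22.9, 21.1, 20.7 and 21.3 CPM in CD34+ cells. Its level separated the cell types in both conditions, and the 2 conditions overlapped in each cell type. The log2 fold change was 0.52 without treatment (SE 0.05, adjusted p = 4.55e-06 in edgeR) and 0.51 with N1-AcSpd (SE 0.05, adjusted p = 4.95e-06).

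Gata3, on the minus strand at chr2:9857078-9890034, did not separate the cell types. In untreated cells it was at 13.7, 14.4, 13.4 and 15.8 CPM in CD34- and at 12.9, 14.8, 15.7 and 16.0 CPM in CD34+ cells. With N1-AcSpd the values were 12.3, 12.9, 11.8 and 12.9 CPM in CD34- and 11.6, 13.4, 11.5 and 15.6 CPM in CD34+ cells. The CD34+ and CD34- ranges overlapped in both conditions. The fitted difference on the log2 scale was 0.05 without treatment (SE 0.09, adjusted p = 0.776 in edgeR) and 0.06 with N1-AcSpd (SE 0.09, adjusted p = 0.699).

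**Figure D2:**
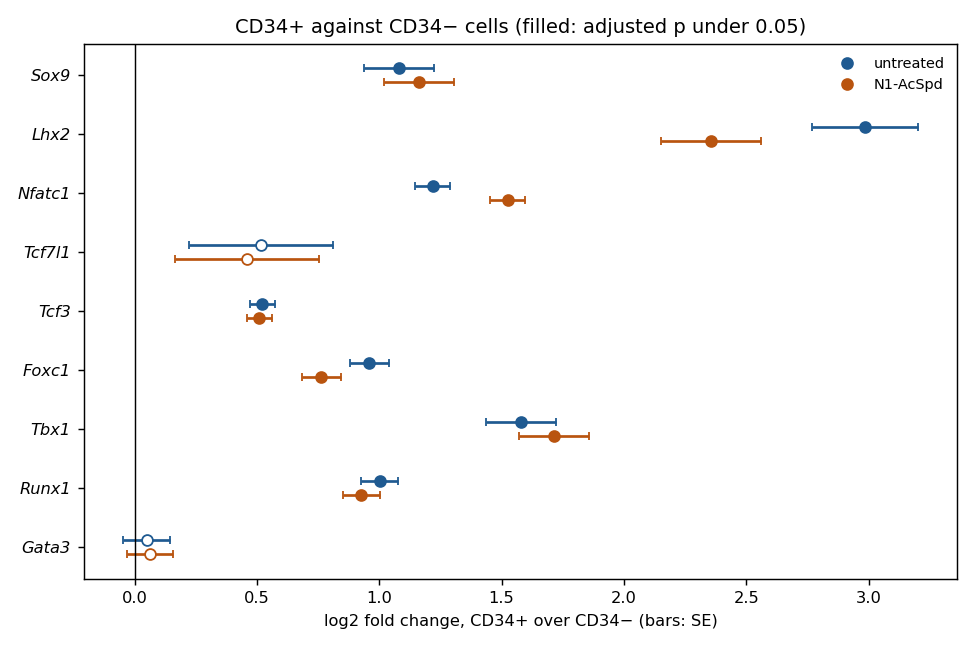
Log2 fold change of CD34+ over CD34- cells (x axis) for each gene, in untreated and N1-AcSpd cells, with SE as bars and filled points for an adjusted p under 0.05. 7 genes are filled in both conditions, with Lhx2 farthest to the right, and Tcf7l1 and Gata3 are open in both.

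Tcf7l1, on the minus strand at chr6:72626378-72789254, was the second member without a call between the cell types. In mice 1 to 4, 48, 26, 39 and 53 UMIs of it were counted in untreated CD34- and 50, 40, 49 and 68 in untreated CD34+ libraries. N1-AcSpd CD34- libraries held 19, 64, 55 and 45 UMIs and N1-AcSpd CD34+ libraries 72, 53, 23 and 43. The counts spread widely within each group, and the cell types overlapped. In CPM the untreated means were 1.95 ± 0.346 in CD34- and 2.80 ± 0.539 in CD34+ cells, and the N1-AcSpd means 1.75 ± 0.666 and 2.41 ± 0.695. The log2 fold changes were 0.52 (SE 0.29, adjusted p = 0.212 in edgeR) and 0.46 (SE 0.29, adjusted p = 0.269).

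The Tcf7l1 counts moved with those of a second gene model. Gm15401 is an antisense model at chr6:72629288-72637717 that lies inside Tcf7l1 on the opposite strand, beginning 2910 bases from the end where the Tcf7l1 transcript stops. Without a statement that the counting used strand, tags of the pair cannot be told apart. Gm15401 held 1 to 4 UMIs in 5 libraries and 15 to 29 in the other 11, with nothing between. Tcf7l1 ran from 19 to 43 UMIs in those 5 libraries and from 39 to 72 in the 11. The 5 low libraries came from all 4 groups, 2 of them from N1-AcSpd CD34+ cells. Taking the Gm15401 count off the Tcf7l1 count in each library, a step chosen after the data were seen, gave 1.05 ± 0.277 and 1.80 ± 0.318 CPM in untreated CD34- and CD34+ cells, and 1.04 ± 0.255 and 1.88 ± 0.534 CPM in N1-AcSpd cells. The cell type log2 fold changes then became 0.78 (SE 0.25, adjusted p = 0.0303 in edgeR) and 0.85 (SE 0.25, adjusted p = 0.0172), both past the threshold. The Tcf7l1 result therefore turns on how these tags are assigned. Among the other members, Gata3 overlaps an antisense model with 6 to 15 UMIs per library (Gm13256), Lhx2 one with at most 1 (Gm13584) and Runx1 one with at most 2 (Gm26626).

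**Figure D3:**
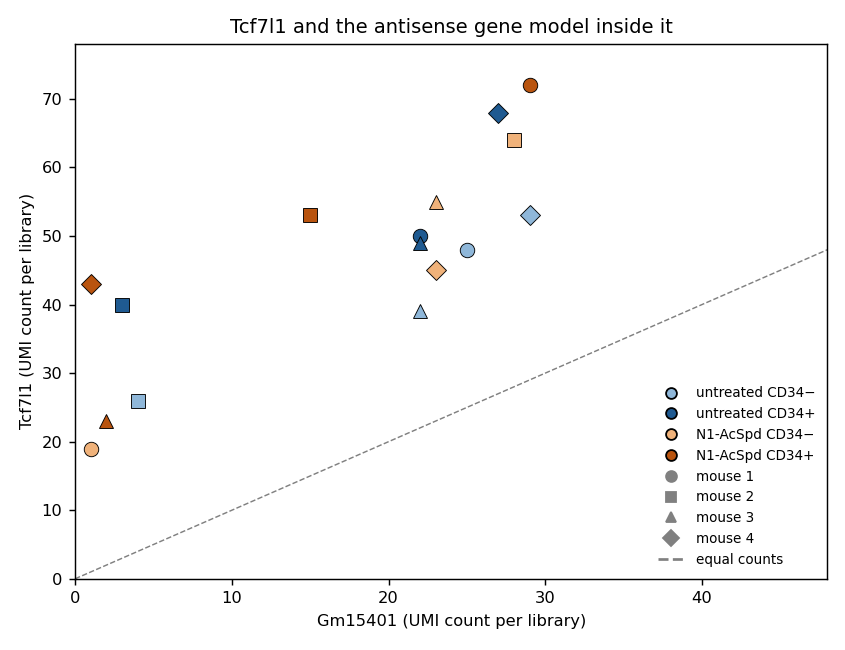
UMI counts of Gm15401 (x axis) and Tcf7l1 (y axis) in the 16 libraries, coloured by group with a symbol per mouse; the broken line marks equal counts. The 5 libraries with 1 to 4 UMIs of Gm15401 hold 19 to 43 of Tcf7l1, and the other 11 hold 39 to 72.

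The 7 factors that separated the cell types also varied together over the 16 libraries. Pearson's r of their log2 CPM values ran from 0.907 to 0.968 between pairs of the 7. Gata3 stood apart, with r from 0.085 to 0.407 against the 7. These correlations are a description: the libraries share 4 mice, and the 7 genes all differ between the sorted cell types. By the same measure the gene most like Sox9 was Vdr, the vitamin D receptor gene (r = 0.988), followed by Cyb5r3 (0.987) and Fzd2, a Wnt receptor gene (0.984). Nfatc1 was closest to Cspg4 (0.982) and Postn (0.981), Foxc1 to Alcam (0.974) and Acot1 (0.974), and Tcf3 to Acot1 (0.985). Tbx1 was closest to Emb (0.987) and Slc7a6 (0.985), and Runx1 to Upb1 (0.984) and Porcn, whose product modifies Wnt ligands (0.98). Gata3 had no such close neighbour, its highest r being 0.863 with Zranb1. The gene with the most opposite pattern was Tuba8 for Sox9 (r = -0.992), Pla2g4e for Foxc1 (-0.991), Tmem147os for Nfatc1 (-0.987) and Gsta1 for Runx1 (-0.987). For Tbx1 it was Asprv1, which encodes a protease of differentiated epidermis (-0.987), for Tcf3 it was Ppl, the periplakin gene (-0.983), and for Gata3 it was Timm50 (-0.826).

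The families and partners of the members were read in the same comparison, from lists that hold the members of that family too. Of all genes, 16.1% were called higher and 16.1% lower in untreated CD34+ cells, the share to set beside each small count below. Of 7 tested LIM genes, 5 were higher in untreated CD34+ cells and none lower: Lhx2 itself, Lmo1 (log2 fold change 0.69, SE 0.08), Ssbp3 (0.49, SE 0.09), and with smaller changes Ssbp2 and Ldb1, the cofactor that binds LIM domains. Of 7 E protein and Id genes, 4 were higher and none lower, with Id4 at 1.84 (SE 0.19) and Id2 at 0.74 (SE 0.17). The E protein genes Tcf12 and Tcf4, not called, spread widely within a group, so their missing calls say little. In untreated CD34- cells Tcf12 ran from 10.5 to 611 CPM and Tcf4 from 5.05 to 15.2 CPM. Of 11 NFAT and calcineurin genes, 4 were higher and none lower in untreated cells, while in N1-AcSpd cells 3 were higher and Nfatc3 was lower (-0.47, SE 0.11, adjusted p = 0.00426 in edgeR). Besides Nfatc1 the 4 were Nfat5 (0.42, SE 0.14) and the genes of calcineurin's catalytic subunits, Ppp3cb (0.32, SE 0.12) and Ppp3ca (0.28, SE 0.08). Nfat5 was not called in N1-AcSpd cells. In untreated cells DESeq2 did not call Ppp3cb or Ldb1, nor, from the lists that follow, Foxm1 (forkhead, higher in edgeR) and Cebpb (epidermal differentiation, higher in edgeR).

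The TCF/LEF list was mixed, with 4 of 9 genes higher and 2 lower, where 16.1% of all genes were called in each direction. Tcf7l2 was higher by 1.03 (SE 0.19) and the corepressor gene Tle1 by 0.74 (SE 0.07), while the corepressor genes Tle4 and Tle3 changed by -0.68 (SE 0.16) and -0.40 (SE 0.12). Of 5 RUNX genes, 3 were higher, among them the partner gene Cbfb (0.35, SE 0.10), and 1 was lower, Cbfa2t2 (-0.47, SE 0.14). Of 8 SOX genes, 3 were higher, among them Sox4 (0.61, SE 0.19), and 2 lower, among them Sox15 (-0.64, SE 0.09). Of 11 forkhead genes, 4 were higher, with Foxp1 at 0.91 (SE 0.12) next to Foxc1, and 1 was lower, the hair differentiation factor gene Foxn1. Of 5 T-box and GATA genes, Tbx1 and Gata6 were higher and none was lower.

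Genes that mark the bulge and outer root sheath went mostly with the factors, 10 of 16 higher and 3 lower in untreated CD34+ cells, Cd34 among them by the sort itself. The adhesion gene Postn was higher by 3.37 (SE 0.17) and the keratin gene Krt15 by 3.35 (SE 0.15), while Krt17 changed by -0.78 (SE 0.05). Of 15 genes of epidermal differentiation factors, 12 were lower and 2 higher, where 16.1% of all genes were called lower in untreated and 16.8% in N1-AcSpd CD34+ cells. The largest decreases were those of Grhl3 (-2.43, SE 0.18), Zfp750 (-2.19, SE 0.23) and Ovol1 (-1.67, SE 0.14), factors known for terminal differentiation of the epidermis. Among 11 factors of basal keratinocytes, Nfib (1.22, SE 0.12), Nfix (0.78, SE 0.10) and Trp63 (0.32, SE 0.06) were higher and 5 were lower, with Hopx at -1.23 (SE 0.26). Of 9 factors of hair and inner root sheath commitment, 2 were higher and 3 lower, with Cux1 at -0.75 (SE 0.09) and Hoxc13 at 0.40 (SE 0.11). The genes called in these lists had adjusted p-values under 0.05 in edgeR.

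In N1-AcSpd cells the same lists gave other counts, where 16.5% of all genes were called higher and 16.8% lower in CD34+ cells. Of the differentiation factor genes, 10 were lower and 1 higher, and of the bulge genes 9 were higher and 2 lower. The LIM list had 6 higher, the E protein list 5 and the T-box and GATA list 2, with none lower. The TCF/LEF list had 4 higher and 1 lower, the forkhead list 3 and 1, the SOX list 1 and 1, and the RUNX list 2 and 0. The basal list had 4 higher and 5 lower, and the hair and inner root sheath list 1 and 3. Among the genes called higher in these lists, DESeq2 did not call Gata6 or, in the TCF/LEF list, Aes. None of the 99 listed genes that are no member was called for the interaction by edgeR or DESeq2, so these counts are not shown to differ between the conditions. An unadjusted p under 0.05 in edgeR was found for 6 of them, and for 799 of all 19049 genes.

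**Figure D4:**
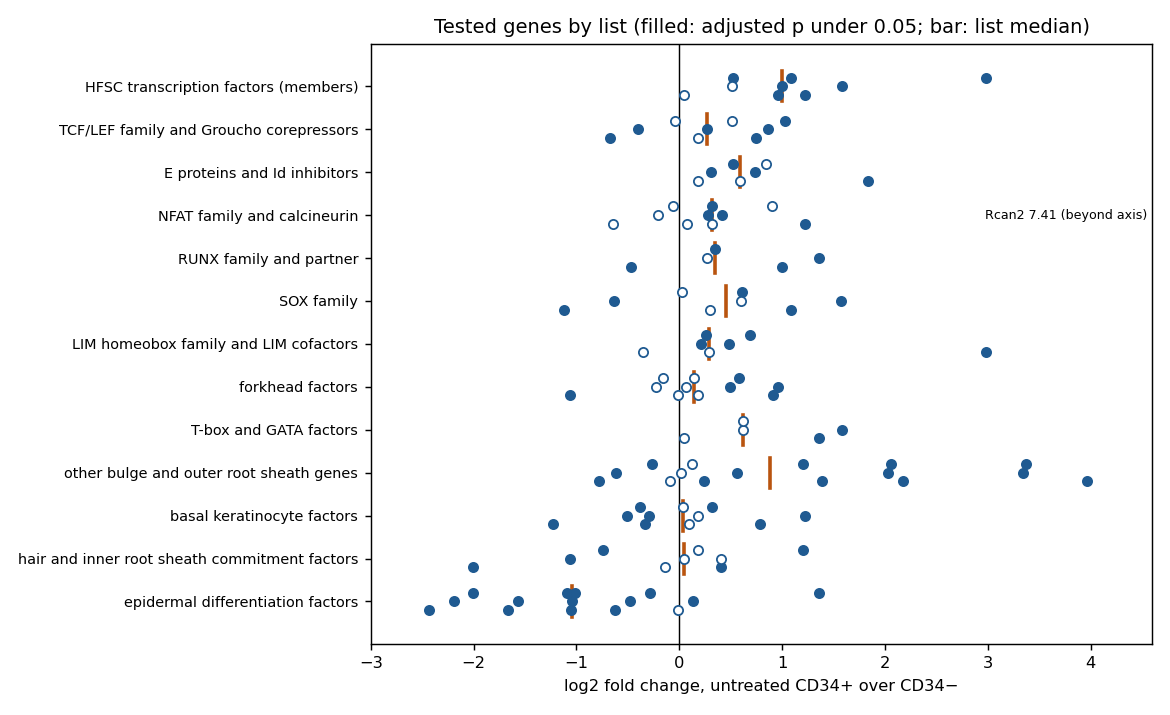
Log2 fold change of untreated CD34+ over CD34- cells (x axis) for the tested genes of each list (rows), filled where the adjusted p was under 0.05, with the list median as a bar. The members have a median of 1.00 and the differentiation factors of -1.05; Rcan2, at 7.41 and not called, lies beyond the axis.

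The other question of the design is whether N1-AcSpd changed these factors within a cell type. Most differences lay below 0. Gata3 aside, the members' averaged differences were smaller than those between the cell types. In CD34- cells Nfatc1 was the one member called, and it was lower. Of all genes, 0.241% were called lower in that comparison. An unadjusted p under 0.05 in edgeR was found there for 3 members, Nfatc1, Runx1 and, with a higher level, Lhx2, and for 2592 of all 19049 genes. In CD34+ cells no member was called, where 0.325% of all genes were called in either direction (62 genes). There 2 members, Runx1 and Foxc1, had an unadjusted p under 0.05 in edgeR, as had 2505 of all 19049 genes. DESeq2 called Runx1 there (-0.33, adjusted p = 0.00516), among 431 of all genes. With both cell types averaged, Nfatc1 and Runx1 were called lower, against 2.17% of all genes called lower. The log2 fold change was below 0 for 7 of 9 members in each of these 3 comparisons, with medians of -0.16, -0.17 and -0.19 against 0.00, -0.01 and -0.01 over all genes. The average is made of the same libraries as the other comparisons and adds no evidence of its own.

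Runx1 showed the clearest lower level. Untreated libraries lay between 9.36 and 10.2 CPM in CD34- cells and N1-AcSpd libraries between 6.77 and 8.82 CPM. In CD34+ cells they lay between 18.2 and 19.8 CPM without and between 13.6 and 16.6 CPM with N1-AcSpd. No treated library thus reached the untreated range of its cell type, and all 4 mice were lower in each. The fitted difference on the log2 scale was -0.27 in CD34- cells (SE 0.08, adjusted p = 0.128 in edgeR) and -0.34 in CD34+ cells (SE 0.08, adjusted p = 0.0817), neither past the threshold. Averaged over both it was -0.31 (SE 0.05, adjusted p = 0.00756), a level 19.1% lower. With mouse as a block, Runx1 was also called in CD34+ cells (-0.35, adjusted p = 0.0406). Without mouse 1 or without mouse 2 the averaged call was lost (-0.29 and adjusted p = 0.0924, and -0.29 and adjusted p = 0.0650).

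Nfatc1 went from 5.84 ± 0.537 to 4.57 ± 0.266 CPM in CD34- cells, and the highest treated library (4.91 CPM) lay below the lowest untreated one (5.33 CPM). The ratio of treated to untreated was 0.805, 0.674, 0.839 and 0.828 in mice 1 to 4. The log2 fold change was -0.35 (SE 0.07, adjusted p = 0.0480 in edgeR), just inside the threshold. Counting error of the UMIs alone would give a wider SE here. In CD34+ cells the log2 fold change was -0.05 (SE 0.07, adjusted p = 0.880), with 3 mice lower and 1 higher. Averaged over both, it was -0.20 (SE 0.05, adjusted p = 0.0365). The call in CD34- cells was lost in 19 of 20 fits that left out 1 library or 1 mouse, all but the one without N1-AcSpd CD34+ replicate 3, at adjusted p-values up to 0.325 (without mouse 2). It was also lost with DESeq2 size factors (adjusted p = 0.0517) and with library totals (0.0619). The averaged call was lost in 16 of those 20, at adjusted p-values up to 0.201. It held without untreated CD34- replicate 1 or 4, without N1-AcSpd CD34- replicate 3 and without N1-AcSpd CD34+ replicate 3. With DESeq2 the averaged Nfatc1 call was lost (adjusted p = 0.0654). The same happened in edgeR with library totals (adjusted p = 0.0507) and without a low-count filter (0.0732).

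Gata3, which did not separate the cell types, separated the conditions in CD34- cells, where N1-AcSpd libraries (11.8 to 12.9 CPM) all lay below untreated ones (13.4 to 15.8 CPM). It was lower in 4 of 4 mice in each cell type. The log2 fold changes of -0.20 in CD34- (SE 0.09, adjusted p = 0.371 in edgeR) and -0.19 in CD34+ cells (SE 0.09, adjusted p = 0.426) were not called, nor was the average (-0.19, SE 0.07, adjusted p = 0.110). With mouse as a block the average was called (-0.20, adjusted p = 0.0315). Counted over the members, 3 had all treated libraries below all untreated ones in CD34- cells (Nfatc1, Runx1 and Gata3) and 1 in CD34+ cells (Runx1), where 4.13% and 3.44% of all genes did so.

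Sox9 was lower with N1-AcSpd in 4 of 4 mice in both cell types, by ratios from 0.737 to 0.950 in CD34- and from 0.797 to 0.957 in CD34+ cells. Its log2 fold changes of -0.25 and -0.17 (SE 0.14 each, adjusted p = 0.465 and 0.693 in edgeR) were not called, and treated and untreated libraries overlapped. Foxc1 differed in CD34+ cells by -0.19 (SE 0.08, adjusted p = 0.315), again lower in 4 of 4 mice with overlapping libraries, while in CD34- cells it stood at 7.22 ± 0.449 and 7.23 ± 0.403 CPM. Tbx1 had values above 0 in CD34+ cells (0.10, SE 0.14, adjusted p = 0.871), higher in 4 of 4 mice. Tcf3 differed by -0.03 and -0.05 (SE 0.05 each) and Tcf7l1 by -0.16 and -0.21 (SE 0.29 each). The Tcf7l1 values were -0.02 and 0.06 (SE 0.25 each) with the Gm15401 tags taken off.

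Lhx2 had the largest value above 0 among the members. It went from 0.359 ± 0.114 to 0.584 ± 0.107 CPM in CD34- cells, 4 to 12 UMIs against 13 to 18 UMIs per library. In CPM the untreated libraries (0.256 to 0.520) and the treated ones (0.494 to 0.738) overlapped. The fitted difference on the log2 scale was 0.68 (SE 0.22, adjusted p = 0.323 in edgeR), with 3 mice higher and 1 lower, and it was not called. In CD34+ cells it was 0.05 (SE 0.19, adjusted p = 0.976).

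**Figure D5:**
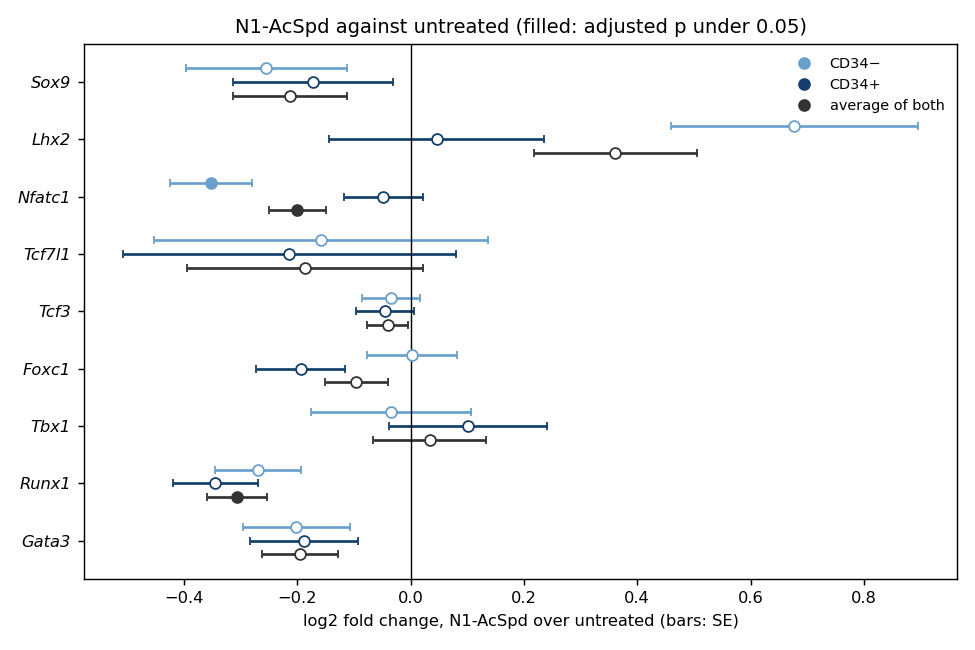
Log2 fold change of N1-AcSpd over untreated cells (x axis) for each gene in CD34- cells, in CD34+ cells and averaged over both, with SE as bars and filled points for an adjusted p under 0.05. Nfatc1 is filled in CD34- cells and for the average, Runx1 for the average, and Lhx2 in CD34- cells is the value farthest above 0 (0.68).

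Whether the treatment difference itself depended on the cell type was tested as an interaction, the CD34+ difference minus the CD34- difference. No member was called, and neither was any other gene, 0% of 19049 in edgeR. An unadjusted p under 0.05 was found for 799 genes, Nfatc1 being the 1 member among them (log2 value 0.30, SE 0.10, adjusted p = 1 in edgeR), and DESeq2 called 71 genes but none of the 9. The Nfatc1 decrease is therefore not shown to be particular to CD34- cells. The interaction for Lhx2 was -0.63 (SE 0.29, adjusted p = 1), and for the other 7 members it lay between -0.20 and 0.14.

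Of the 99 tested genes of the lists that are no member, 12 (12.1%) were called for the averaged treatment effect by edgeR, against 4.87% of all genes in either direction. DESeq2 called 21 of them, and 1546 of all genes. The Wnt effector gene Ctnnb1 changed by -0.20 (SE 0.03), the 1 call in the TCF/LEF list, and the calcineurin gene Ppp3cb by -0.42 (SE 0.08), the call beside Nfatc1 in its list. In the LIM, E protein, forkhead and T-box and GATA lists none of 7, 7, 11 and 5 tested genes was called by edgeR, and 3, 2, 2 and 1 had an unadjusted p under 0.05. Over all 19049 genes, 3953 had an unadjusted p under 0.05 for this average. DESeq2 called 1 gene of these lists, Id3. Among the 16 bulge genes Postn (-0.53, SE 0.11), Krt15 (-0.37, SE 0.10) and Itgb6 (-0.35, SE 0.06) were lower and Krt17 was higher (0.17, SE 0.04). Among the 15 differentiation factor genes, 4 were higher and none lower, among them Grhl3 at 0.60 (SE 0.13), Ovol1 at 0.48 (SE 0.10) and Elf3 at 0.44 (SE 0.09). Sox7 was higher (1.05, SE 0.23) and the basal factor gene Nfib lower (-0.37, SE 0.08). The hair and inner root sheath list had no call among 9 tested genes, 3 of them at an unadjusted p under 0.05 in edgeR, and none in DESeq2. Within CD34- cells alone or CD34+ cells alone, none of the 99 listed genes that are no member was called by edgeR. An unadjusted p under 0.05 was found for 30 and 27 of them, and for 2592 and 2505 of all 19049 genes. DESeq2 called 8 and 3 of them, Ctnnb1 and Krt17 in both.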

How the data were processed

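RNA of 16 libraries was sequenced with UMIs. The authors demultiplexed with FLEXBAR, aligned to mm10 with Kallisto (0.45.0 in the submitters' processing notes) and assigned tags with BEDTools; strand setting and annotation release are not given in the sources used here. The deposited values are unique UMI counts per gene, without normalization. The 156050 empty cells were read as 0, and the 94 identifiers without a symbol held 0.125% of counts. Few UMIs for a gene give a wide relative error.

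Tests used edgeR 4.0.16 (R 4.3.3) on the 19049 genes whose count averaged 5 or more: TMM scaling, the quasi-likelihood model with a mean for each group fitted to the 16 libraries jointly, and two-sided p-values adjusted by Benjamini-Hochberg over all genes. SE is the log2 fold change over the square root of F, and edgeR raises a p below its Poisson counterpart. Such an SE can be smaller than the counting error of the UMIs alone, for example for Lhx2 and Nfatc1 where CD34- cells are compared. It then overstates precision and need not match the p beside it. All 9 members passed the count filter. DESeq2 1.42.0 was an alternative. The procedure was tested on simulated data.

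The members, lists, tests and naming rule were chosen with earlier results of these data known. From each list, up to 3 called genes per direction averaging 50 or more counts are named, and a few others were named after their values were seen. Lists of related genes overlap the members. The mouse entry of the labels pairs same-numbered libraries as 1 animal. Their deviations from the group means correlated at a mean r of 0.024 (-0.088 to 0.118, 24 pairs). Pooled over genes, replicates of a group differed beyond sampling noise (chi-square per degree of freedom at least 26.0), which need not hold for each gene.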

Additional observations from a re-analysis of the deposited data

Results flagged for a closer look

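Values were examined for 1 library that stands away from the other 3 of its group by Dixon's ratio, the gap to its neighbour over the range of the group, at the 95% limit for 4 samples. Chance alone passes this limit in about 1 in 20 groups, and 36 groups (9 genes in 4 groups) were examined. The library of mouse 4 in N1-AcSpd CD34+ cells was highest for Sox9, at 84.98 CPM (ratio 0.876), and for Tbx1, at 34.59 CPM (ratio 0.846). The same library was the highest of its group for Cd34 (64.1 CPM) and Krt15 (386 CPM). Without that library the Sox9 and Tbx1 cell type calls in N1-AcSpd cells held. Runx1 was highest in mouse 1 among untreated CD34- libraries, at 10.15 CPM (ratio 0.875), and its averaged treatment call held without that library (-0.29, adjusted p = 0.0201 in edgeR).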

How the results depend on the processing

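The number of members called between the cell types was 7 in both conditions, and 8 in both with the Gm15401 tags taken off Tcf7l1. All other fits gave 7. In CD34- cells the number called for N1-AcSpd was 1, and it was 0 with DESeq2 size factors, with library totals, without a low-count filter, with only the compared groups in the fit and with a log2 fold change over 0.5 required. Fits that left out a library or a mouse gave 0 to 1. In CD34+ cells it was 0, and it was 1 (Runx1) with the replicate block and with DESeq2, and 0 to 1 over the leave-out fits, 1 without N1-AcSpd CD34- replicate 3. For the average it was 2, and it was 1 (Runx1) with library totals, without a filter and with DESeq2, 0 with the log2 fold change over 0.5, and 0 to 2 over the leave-out fits. With the replicate block, Gata3 joined the averaged calls (3 members). Apart from this and the Runx1 call in CD34+ cells, no member's call changed under the block. Over all genes, DESeq2 called 431 for N1-AcSpd in CD34+ cells, where edgeR called 62, and 71 for the interaction, where edgeR called 0. The cause of these changes was not tested.

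No value that changed sign was called in the reported fit. With other settings these were the Tcf3 interaction, 0.0017 with DESeq2 size factors and with DESeq2, and Foxc1 in CD34- cells, -0.0011 without a filter and -0.00049 with only the compared groups. With the Gm15401 tags taken off, an alternative chosen after seeing the data, Tcf7l1 went from -0.21 to 0.061 for N1-AcSpd in CD34+ cells, from -0.19 to 0.023 for the average and to 0.076 for the interaction. Over the leave-out fits, Gata3 ran from -0.013 to 0.11 between untreated and from -0.034 to 0.13 between N1-AcSpd cell types, and its interaction from -0.082 to 0.099. For N1-AcSpd in CD34- cells, Tcf7l1 ran from -0.38 to 0.11, Foxc1 from -0.034 to 0.052 and Tbx1 from -0.11 to 0.052. For N1-AcSpd in CD34+ cells, Lhx2 ran from -0.018 to 0.15, Nfatc1 from -0.11 to 0.0017 and Tbx1 from -0.017 to 0.21. The average for Tbx1 ran from -0.026 to 0.084. The interaction ran from -0.069 to 0.21 for Sox9, from -0.37 to 0.26 for Tcf7l1, from -0.045 to 0.035 for Tcf3 and from -0.15 to 0.0020 for Runx1. In Lhx2, depth is the limit, since untreated CD34- libraries held 4 to 12 UMIs of it.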
